A study of Mus musculus with 2 samples.

Results

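Keratins are the intermediate filament proteins of epithelial cells, and 4 of them that mark the ocular surface epithelium, *Krt12*, *Krt5*, *Krt14* and *Krt15*, are described here in single cells of mouse cornea. They are 4 of the 20198 genes of the deposited count table, they were chosen by name with earlier results of these data known, and each was followed through all 17 deposited cell clusters. The cells came from 2 libraries. UW pooled 8 unwounded corneas of 4 male mice, and W pooled 8 corneas of 4 male mice 24 h after the epithelium inside a 2.5 mm trephine mark at the centre of the cornea had been scraped off. The mice were 6 to 8 weeks old, and their strain is not given in the sources used here. Corneas were digested with dispase, then with trypsin for the epithelial sheet and with collagenase for the rest. The RNA was sequenced as 3′ ends on the 10x Genomics droplet platform, where each counted unique molecular identifier (UMI) stands for 1 captured RNA molecule. The region of the cornea a cell came from is not recorded, so a different mix of regions, a different level within cells and a difference between the libraries themselves cannot be told apart. With 1 library per condition no test was possible, and every interval below is a 95% interval that covers counting error only.

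Keratin filaments are built from pairs of a type I and a type II keratin. *Krt5*, a type II keratin, and *Krt14*, a type I keratin, form the pair typical of basal cells in stratified epithelia. *Krt12* is the type I keratin of differentiated corneal epithelium and is used as its marker, and *Krt15* is a type I keratin of basal cells that has been used as a marker of limbal and hair follicle progenitors and is also found in conjunctiva. In GENCODE (GRCm38) the type I genes lie on the minus strand of chromosome 11, *Krt12* at chr11:99415666-99422259, *Krt15* at chr11:100131758-100135928 and *Krt14* at chr11:100203162-100207548. The type II gene *Krt5* lies on the minus strand at chr15:101707070-101712898. The largest transcripts have 8 exons for the type I genes and 9 for *Krt5*.

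The bases before the start sites of *Krt12* and *Krt5* are shown because both genes were highest in clusters 1, 2 and 4 of each library but differed in their ratios of W to UW. They come from RefSeq (GRCm38.p6) and are written 5′ to 3′ on the minus strand, 250 bases each. The capitals mark any match of 4 motifs, on either strand. They are the TATAAA box, the CACCC box (GGGTG on the other strand), the Sp1 motif with the letters GGGCGG and the AP-1 motif with the letters TGANTCA.
Krt12 (chr11:99422260-99422509): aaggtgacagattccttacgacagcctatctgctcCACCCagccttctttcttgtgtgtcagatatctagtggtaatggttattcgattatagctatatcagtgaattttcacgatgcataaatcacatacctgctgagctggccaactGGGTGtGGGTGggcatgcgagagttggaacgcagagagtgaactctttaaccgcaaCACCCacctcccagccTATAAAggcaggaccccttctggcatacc
Krt5 (chr15:101712906-101713155): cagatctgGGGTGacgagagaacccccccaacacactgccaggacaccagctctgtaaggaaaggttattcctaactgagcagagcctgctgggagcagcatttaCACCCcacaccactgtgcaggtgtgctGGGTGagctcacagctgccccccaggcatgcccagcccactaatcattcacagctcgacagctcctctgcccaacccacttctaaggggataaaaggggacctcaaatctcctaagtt
In the full RefSeq windows of 300 bases, which run to 50 bases after the start site, the *Krt12* window held 4 CACCC boxes and 1 TATAAA box, whose first base lies at position -29 from the start site. The *Krt5* window held 4 CACCC boxes, of which 1 lies 8 bases after the start site, and no TATAAA box. Over 32851 windows of all genes, 57.5% held a CACCC box, 13.6% the TATAAA box, 35.7% the Sp1 motif and 7.81% the AP-1 motif. Neither gene's window held the Sp1 motif or the AP-1 motif. The RefSeq start site of *Krt14* lies 1518 bases inside the GENCODE gene, so its window is not shown. No window was found for *Krt15*.

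The UW library held 16450 cells with a median of 22014 UMIs and the W library 12417 cells with a median of 20290 UMIs. Of these cells, 13501 and 8507 were in the 10 clusters in which a list of epithelial markers stood above the lists of keratocytes, neutrophils, monocytes and macrophages, and T cells. The clusters are called by number and by genes that led them: 3 (*Itgb4*, *Col17a1*, *Lamb3*), 11 (*Mcm3*, *Uhrf1*), 8 (*Mki67*, *Top2a*), 9 (*Wfdc18*, *Dlk2*), 5 (*Krt4*, *Krt19*), 1 (*Dapl1*, *Pygl*), 4 (*Dsg1a*, *Cldn17*), 2 (*Spink5*, *Ly6g6c*), 6 (*Psca*, *Krt78*) and 7 (*Lce3a*, *Crct1*). The deposited clusters were made from the expression of these same cells, and *Krt15* was among the 10 leading genes of cluster 5, so levels between clusters are a description. In the epithelial clusters the summed level of 4 neutrophil markers was 2.03 to 155 CPM (UMIs per 1000000 UMIs) in UW and 352 to 1050 in W, that of 6 keratocyte markers 243 to 591 and 287 to 482, and that of 5 markers of superficial cells was lower in W in all 10. The part of these cells and layers in the results below was not tested. Both libraries held 52 cell barcodes in common.

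*Krt12* ranked first of all genes in 5 of 10 epithelial clusters of UW, and its level was lower in W in 8 of the 10. Levels are given as the UMIs of a gene per 1000000 UMIs of the cluster (CPM). Among UW clusters *Krt12* was highest in cluster 4 at 42955 CPM, followed by 41515 in cluster 1, 35550 in cluster 2, 29083 in cluster 3, 24620 in the *Mcm3* cluster 11 and 17345 in the *Mki67* cluster 8. The clusters in which it ranked first were clusters 1, 3, 4, 8 and 11, where it made up 1.73% to 4.30% of all UMIs. Its level was 16038 CPM in the *Psca* cluster 6, and the lowest levels were 5299 CPM in cluster 7, 5205 in cluster 5 and 5086 in cluster 9, without overlap between the counting intervals of any neighbours in this order. The levels in W were 28424 CPM in cluster 2, 27157 in cluster 4, 22784 in cluster 1, 19064 in cluster 6, 11905 in cluster 3, 11176 in cluster 11, 7860 in cluster 8, 7216 in cluster 7, 2230 in cluster 5 and 1368 in cluster 9. The highest level was 8.45 times the lowest in UW and 20.8 times the lowest in W.

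The largest difference in *Krt12* was in cluster 9, whose UW level was 3.72 times that of W (log2 ratio of W over UW -1.89, interval -1.92 to -1.87). Its median cell held 2039 CPM (UW) and 794 CPM (W), and its 95th percentiles were 16478 and 3315. In all, 28.9% of its UW cells and 10.2% of its W cells exceeded 99% of the cells of cluster 0 after thinning to 5000 UMIs, and with the mean UMIs per cell of cluster 0 taken off the log2 ratio was -2.19. Clusters 3, 5, 8 and 11 had UW levels 2.20 to 2.44 times those of W, with log2 ratios of -1.29 in cluster 3, -1.22 in cluster 5, -1.14 in cluster 8 and -1.14 in cluster 11. In cluster 5, as in cluster 9, a minority of cells carried the level. Its median cell held 1180 CPM (UW) and 820 CPM (W), the median cell of the keratocyte-like cluster 0 held 1511 and 689 CPM, and the 95th percentiles of cluster 5 were 23485 and 8146. After thinning each cell to 5000 UMIs, 25.05% of the UW cells and 20.2% of the W cells of cluster 5 exceeded 99% of the cells of cluster 0. *Krt12* in cluster 0 was itself 2.11 times as high in UW as in W, and with the mean UMIs per cell of that cluster taken off, the log2 ratio of cluster 5 was -1.33. Smaller differences were seen in clusters 1, 4 and 2, where the UW level was 1.82 times that of W in cluster 1, 1.58 times in cluster 4 and 1.25 times in cluster 2. Clusters 6 and 7 went the other way, with W levels 1.19 and 1.36 times those of UW, but both were smaller on other scalings. TMM factors left log2 ratios of 0.09 and 0.07, and median-of-ratios size factors 0.09 and 0.04. Those scalings shifted every ratio of cluster 7 by -0.38 and -0.41 on the log2 scale and that of the other clusters by at most 0.16 in size, and the median log2 ratio over all genes of cluster 7 was 0.26. Calling a difference of 2-fold or more, *Krt12* was lower in W in 5 of 10 clusters (3, 5, 8, 9 and 11) and higher in none. Among all genes with at least 20 UMIs over both libraries, the share lower by 2-fold or more was 11.1% in cluster 3, 9.33% in cluster 11, 9.58% in cluster 8, 9.76% in cluster 9, 7.47% in cluster 5, 11.0% in cluster 1, 13.5% in cluster 4, 13.1% in cluster 2, 9.58% in cluster 6 and 6.48% in cluster 7. In cluster 9, 240 of 12370 genes had a log2 ratio at or below that of *Krt12*, and in cluster 3, 890 of 12845.

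**Figure D1:**
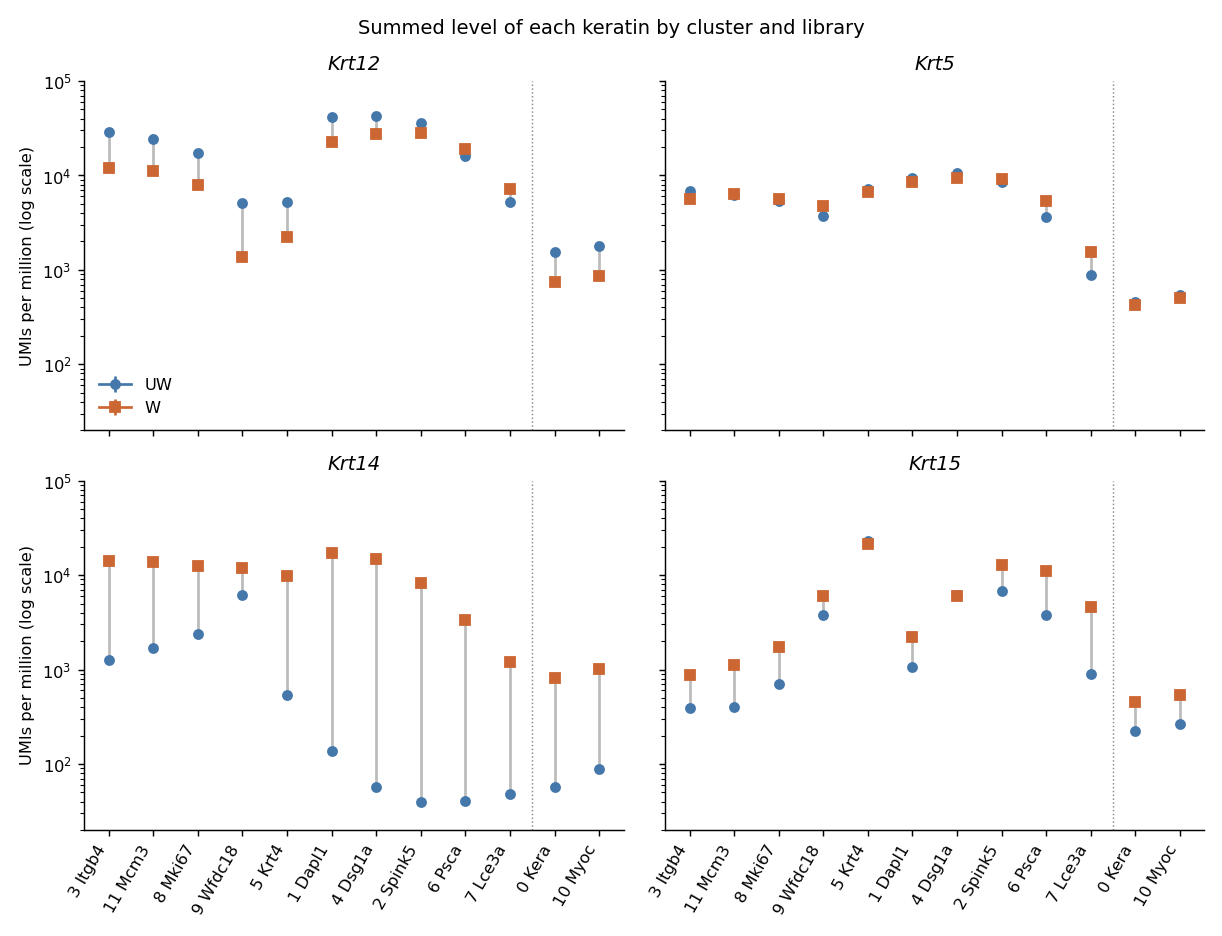
UMIs per 1000000 UMIs of each gene (log scale) in the 10 epithelial clusters, ordered from *Itgb4* to *Lce3a*, and, right of the dotted line, in clusters 0 and 10, which are led by *Kera* and *Myoc*. Circles are the UW library, squares the W library, bars the 95% counting intervals, smaller than the symbols, and grey lines join the libraries. *Krt14* of UW lies between 39.3 and 57.3 in clusters 2, 4, 6 and 7, close to its level of 57.4 in cluster 0, and in W at 1188 or more in every epithelial cluster, where clusters 0 and 10 lie at 821 and 1002.

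*Krt5*, the type II partner of the others, had the narrowest range of W to UW ratios of the 4 genes and differed by less than 2-fold between libraries in every epithelial cluster. Its UW level was highest in cluster 4 at 10615 CPM and 9420 in cluster 1, 8537 in cluster 2, 7269 in cluster 5, 6928 in cluster 3, 6235 in cluster 11, 5329 in cluster 8, 3753 in cluster 9, 3595 in cluster 6 and 875 in cluster 7. The same clusters held 9300, 8570, 9249, 6609, 5680, 6361, 5579, 4753, 5390 and 1551 CPM in W, where clusters 4 and 2 had overlapping counting intervals. Its log2 ratio of W over UW ran from -0.29 in cluster 3 to 0.83 in cluster 7, with a median of 0.05 over the 10 clusters. In the *Lce3a* cluster 7 the W level was 1.77 times that of UW, and the log2 ratio was 0.45 with TMM factors and 0.42 with median-of-ratios factors. The median cell of cluster 3 had 6726 CPM of *Krt5* in UW and 5321 in W, and the 5th and 95th percentiles were 4010 and 10046 in UW and 2649 and 8888 in W.

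*Krt14*, the basal type I keratin, had the widest range of ratios, with a higher W level in all 10 epithelial clusters. The summed level of 5 genes listed as limbal markers was also higher in W in all 10, at 119 to 4947 CPM in UW and 1447 to 5449 in W. That list was not limited to limbal cells. Over both libraries it stood at 6172 CPM in the keratocyte-like cluster 0 and at 5332 in cluster 9. The part of these genes in the result was not tested. In UW *Krt14* was highest in the *Wfdc18* cluster 9 at 6197 CPM, followed by 2378 in the *Mki67* cluster 8, 1677 in cluster 11, 1256 in the *Itgb4* cluster 3 and 543 in cluster 5. The other clusters, led by genes such as *Dapl1*, *Dsg1a* and *Psca*, held 136 CPM in cluster 1, 57.3 in cluster 4, 48.4 in cluster 7, 40.3 in cluster 6 and 39.3 in cluster 2. The keratocyte-like cluster 0, led by *Kera*, held 57.4 CPM of *Krt14*, so by CPM 4 of these 5 epithelial clusters lay at or below cells that are not epithelial. By UMIs per cell the same 4 held 1.14 to 1.61, above the 0.689 of cluster 0 and the 0.896 of cluster 10, so whether they hold *Krt14* beyond background depends on the scale. Clusters 6 and 2 of UW had overlapping counting intervals. The order differed in W, with 17124 CPM in cluster 1, 14624 in cluster 4, 14011 in cluster 3, 13736 in cluster 11, 12454 in cluster 8, 11770 in cluster 9, 9845 in cluster 5, 8237 in cluster 2, 3317 in cluster 6 and 1188 in cluster 7. *Krt14* ranked from second to sixth of all genes in clusters 9, 8, 11, 3, 1, 4 and 5 of W.

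In the 5 clusters with the most *Krt14* in UW, the W level was 1.90 times that of UW in cluster 9 (log2 ratio 0.93, interval 0.91 to 0.94), 5.24 times in cluster 8, 8.19 times in cluster 11, 11.2 times in cluster 3 and 18.1 times in cluster 5. In cluster 5 the log2 ratio of 4.18 was 3.66 when each cell had the same weight. In the other 5 clusters the UW level was at most 136 CPM, against 57.4 in cluster 0, so the ratio depends on the background. *Krt14* in clusters 0 and 10 was itself higher in W, at 821 CPM (14.3 times its UW level) and 1002 CPM (11.3 times). The ratio of cluster 0 was above those of clusters 3, 8, 9 and 11, and that of cluster 10 was above those of clusters 8, 9 and 11 and within its counting interval of that of cluster 3. The W level of 1188 CPM in cluster 7 was 1.45 times that of cluster 0, and 6.82% of its W cells were above 99% of the cells of cluster 0. In the 5 clusters with the least *Krt14* in UW the log2 ratios were 6.98 in cluster 1, 8.0 in cluster 4, 7.71 in cluster 2, 6.36 in cluster 6 and 4.62 in cluster 7, and became 7.28, 8.73, 8.75, 7.36 and 4.68 after the mean UMIs per cell of cluster 0 in the same library had been taken off every cell. Counting 2-fold differences, *Krt14* was higher in W in 9 of 10 epithelial clusters and in both clusters 0 and 10, with cluster 9 short of 2-fold, where TMM factors gave a log2 ratio of 1.06. The share of all genes higher by 2-fold or more was 15.1% in cluster 3, 12.7% in cluster 11, 10.9% in cluster 8, 9.12% in cluster 9, 12.7% in cluster 5, 14.7% in cluster 1, 13.8% in cluster 4, 13.2% in cluster 2, 17.2% in cluster 6 and 23.2% in cluster 7. The log2 ratio was at or above that of *Krt14* for 20 genes in cluster 1, 21 in cluster 2, 29 in cluster 4 and 1290 of 12370 in cluster 9.

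Cells outside the epithelium gave the background against which the members were read. In UW, clusters 0 and 10 (led by *Kera* and by *Myoc*) held 18.6 and 18.1 *Krt12* UMIs per cell, 5.51 and 5.43 of *Krt5*, 0.689 and 0.896 of *Krt14* and 2.70 and 2.68 of *Krt15*. In W, leaving out cluster 14, the 6 other clusters held 9.27 to 14.2 *Krt12*, 5.24 to 8.05 *Krt5*, 10.6 to 15.6 *Krt14* and 5.40 to 8.51 *Krt15* UMIs per cell. Among these clusters were the keratocyte-like cluster 0 and the *S100a8* cluster 13, and their median depths ran from 2510 to 18788 UMIs. The UMIs of *Krt14* per UMI of *Krt12* were 0.0369 and 0.0495 in clusters 0 and 10 of UW and 1.05 to 1.15 in those 6 clusters of W, beside 0.0192 and 0.906 over all epithelial cells. Cluster 14 (*Cd74*, *C1qa*) of W stood apart with means of 63.0 *Krt12* and 39.0 *Krt14* UMIs per cell and a ratio of 0.620. A minority of its cells carried these means, since its median cell held 11 *Krt12* and 12 *Krt14* UMIs. After thinning to 5000 UMIs, 16.4% and 17.6% of its cells exceeded 99% of the cells of cluster 0. The lowest epithelial values of W were 26.9 *Krt14* UMIs per cell in cluster 7 and 35.6 *Krt12* UMIs per cell in cluster 9. Shares of cells with a UMI are read beside those of cluster 0 for the same reason. *Krt14* was seen in 60.5% of UW cells of cluster 7 (interval 58.0% to 63.0%, median depth 23636) and in 45.4% of UW cells of cluster 0 (43.4% to 47.4%, median depth 11853), and after thinning each cell to 5000 UMIs in 18.0% and 22.8%.

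Counted against this background, a larger share of W than of UW cells held *Krt14* and *Krt12* together over all epithelial cells, but not in every cluster. A cell was taken as above background where its UMIs of a gene, after thinning to 5000, exceeded those of 99% of the cells of cluster 0 of its library, which meant over 2 UMIs of *Krt14* in UW and over 13 in W, and over 19 and over 12 of *Krt12*. In UW, 68.5% of 13134 epithelial cells were above background for *Krt12* alone (interval 67.7% to 69.3%), 16.8% for both genes (16.2% to 17.5%), 4.17% for *Krt14* alone and 10.5% for neither. In W, 60.3% of 8331 cells were above background for both (59.2% to 61.4%), 11.4% for *Krt12* alone, 22.6% for *Krt14* alone and 5.71% for neither. Cells with both made up 8.06% of UW and 98.8% of W cells in cluster 1, 2.01% and 96.1% in cluster 4, 0.318% and 76.8% in cluster 2, and 55.7% and 96.4% in the *Itgb4* cluster 3. In the *Psca* and *Lce3a* clusters the W share with both was 33.0% in cluster 6 and 5.85% in cluster 7, against 0.200% and 0.201% in UW. The shares were 71.5% of UW and 96.6% of W cells in cluster 11 and 6.47% and 18.7% in cluster 5. In the *Mki67* cluster 8 they were 75.1% (interval 71.1% to 78.8%) and 76.9% (74.6% to 79.2%), with overlapping intervals. Cluster 9 went the other way, with 28.3% of UW and 10.2% of W cells above background for both and 70.9% and 89.2% for *Krt14* alone.

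**Figure D2:**
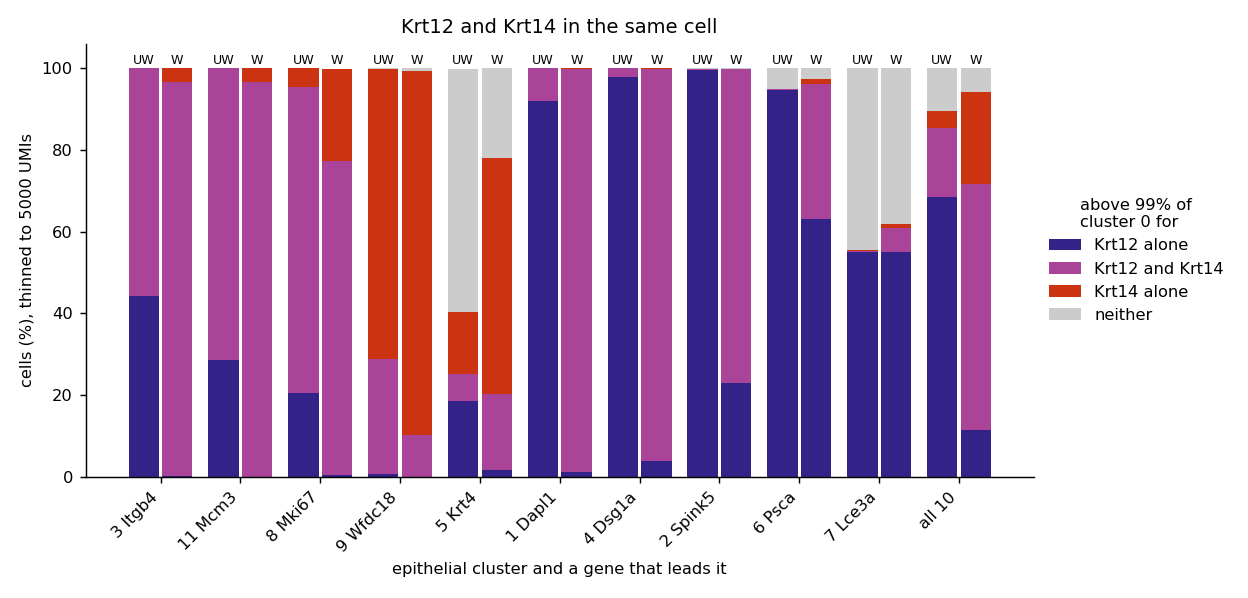
Share of cells (percent, cells thinned to 5000 UMIs) above 99% of the cells of cluster 0 of the same library for *Krt12* alone, for both genes, for *Krt14* alone or for neither, with UW on the left and W on the right of each pair of bars. Over all 10 epithelial clusters the share with both is 16.8% in UW and 60.3% in W, and in clusters 1, 2 and 4 it goes from at most 8.06% to at least 76.8%.

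*Krt15* was highest in the *Krt4* and *Krt19* cluster 5 in both libraries, at 23158 CPM in UW and 21102 in W, and was higher in W in 8 of 10 clusters. Its UW level was 6770 CPM in cluster 2, 6121 in cluster 4, 3818 in cluster 6, 3740 in cluster 9, 1068 in cluster 1, 903 in cluster 7, 700 in cluster 8, 403 in cluster 11 and 389 in cluster 3, where the last pair had overlapping counting intervals. In W the same clusters held 12933, 5943, 10917, 5959, 2186, 4628, 1718, 1129 and 881 CPM, and clusters 9 and 4 had overlapping intervals. The *Itgb4* cluster 3 was thus the lowest of the 10 in both libraries, at 1.73 and 1.96 times the level of cluster 0 (225 CPM in UW and 451 in W). *Krt15* was higher by 2-fold or more in W in 6 of 10 clusters, with W levels 5.13 times those of UW in cluster 7, 2.86 times in cluster 6, 2.80 times in cluster 11, 2.45 times in cluster 8, 2.27 times in cluster 3 and 2.05 times in cluster 1. Of all genes, 23.2% were higher by 2-fold in cluster 7, 17.2% in cluster 6, 15.1% in cluster 3, 14.7% in cluster 1, 12.7% in cluster 11 and 10.9% in cluster 8. The log2 ratio was at or above that of *Krt15* for 438 of 10741 genes in cluster 7, 1150 of 11685 in cluster 6, 847 of 12107 in cluster 11, 1003 of 13086 in cluster 8, 1583 of 12845 in cluster 3 and 1801 of 12647 in cluster 1. *Krt15* in cluster 0 was itself 2.01 times as high in W as in UW. Cells above 99% of cluster 0 for *Krt15* made up 8.72% of UW (interval 7.43% to 10.2%) and 10.2% of W cells (8.24% to 12.4%) in cluster 3, with overlapping intervals. They made up 18.4% and 33.6% in cluster 1, 13.9% and 27.0% in cluster 8, 10.7% and 17.1% in cluster 11 and 23.9% and 56.9% in cluster 7. Cluster 1 fell short of 2-fold under TMM factors, with a log2 ratio of 0.91, and cluster 4 had a log2 ratio of -0.04 that was 0.0036 under median-of-ratios factors.

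The summed level of 4 genes listed as markers of conjunctiva (*Krt4*, *Krt19*, *Krt17* and *Krt13*) moved in the same direction as *Krt15* in 8 clusters, and their part in the result was not tested. That list was higher in W in all 10 clusters, from 201 to 9603 CPM in UW and from 785 to 13197 in W. Its log2 ratios were 1.61 in cluster 7, 1.15 in cluster 6, 2.10 in cluster 1 and 0.46 in cluster 5. *Krt15* was also uneven within clusters. In cluster 4 of UW the 5th percentile was 66.3 CPM, the median 2152 and the 95th percentile 19260, and in cluster 6 the median cell held 1506 CPM in UW and 7603 in W. Cells with much *Krt15* held less *Krt12*: across the cells of a cluster, thinned to 5000 UMIs, Spearman's rho between the pair was below 0 in all 10 clusters of both libraries, from -0.65 in cluster 4 to -0.10 in cluster 11 of UW and from -0.47 in cluster 6 to -0.07 in cluster 3 of W. *Krt5* and *Krt14* had rho of -0.19 to 0.09 in UW and 0.13 to 0.51 in W. The cells of a cluster share their library and a fixed UMI total, so these are descriptions.

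**Figure D3:**
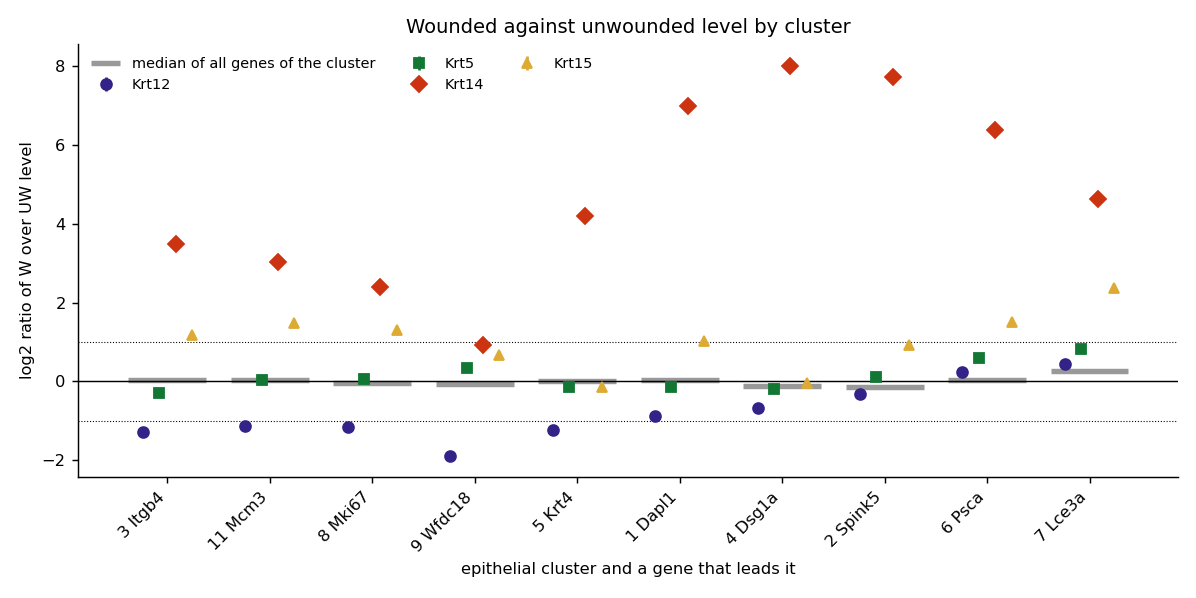
Log2 ratio of the W over the UW level of each gene in the 10 epithelial clusters, with 95% counting intervals (smaller than the symbols), the median of all genes of the cluster as a grey bar and dotted lines at 2-fold. *Krt14* (diamonds) lies above the upper dotted line in 9 clusters, *Krt12* (circles) below the lower one in 5, *Krt5* (squares) between them in all 10 and *Krt15* (triangles) above in 6.

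Over all epithelial cells, a smaller share of W than of UW cells was led by *Krt12*, and a larger share by *Krt14* and *Krt15*. Counting the gene with the most UMIs among the 4, *Krt12* led 86.7% of UW epithelial cells (interval 86.1% to 87.3%) and 41.2% of W cells (40.2% to 42.3%). *Krt14* led 2.59% of UW cells (2.33% to 2.88%) and 37.99% of W cells (37.0% to 39.0%), and *Krt15* led 10.3% and 20.2%. These pooled shares also move with the mix of clusters: cluster 5 held 1100 of 13501 UW epithelial cells and 1201 of 8507 W cells, and cluster 9 held 521 and 956. Within cluster 5, *Krt15* led fewer W than UW cells, 71.9% against 87.0%. *Krt5* led 0.222% and 0.353%, so a type I keratin led nearly every cell, although UMIs of different genes can be captured with different efficiency. In the *Itgb4* cluster 3 *Krt12* led 99.8% of UW cells and 38.6% of W cells, while *Krt14* led 0.0559% and 60.2%. *Krt14* led 68.6% of W cells in the *Mki67* cluster 8, 63.9% in the *Mcm3* cluster 11 and 35.0% in cluster 1, but 13.8% in cluster 4 and 2.14% in cluster 2, where *Krt12* still led 81.7% and 79.4%. In clusters 2, 5, 6 and 7 *Krt15* led more W cells than *Krt14* did. It led 3.94% of UW and 18.2% of W cells in cluster 2, 7.44% and 30.5% in the *Psca* cluster 6 and 9.46% and 38.3% in the *Lce3a* cluster 7. Cluster 9 was led by *Krt14* in both libraries, in 59.9% of UW and 75.2% of W cells.

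**Figure D4:**
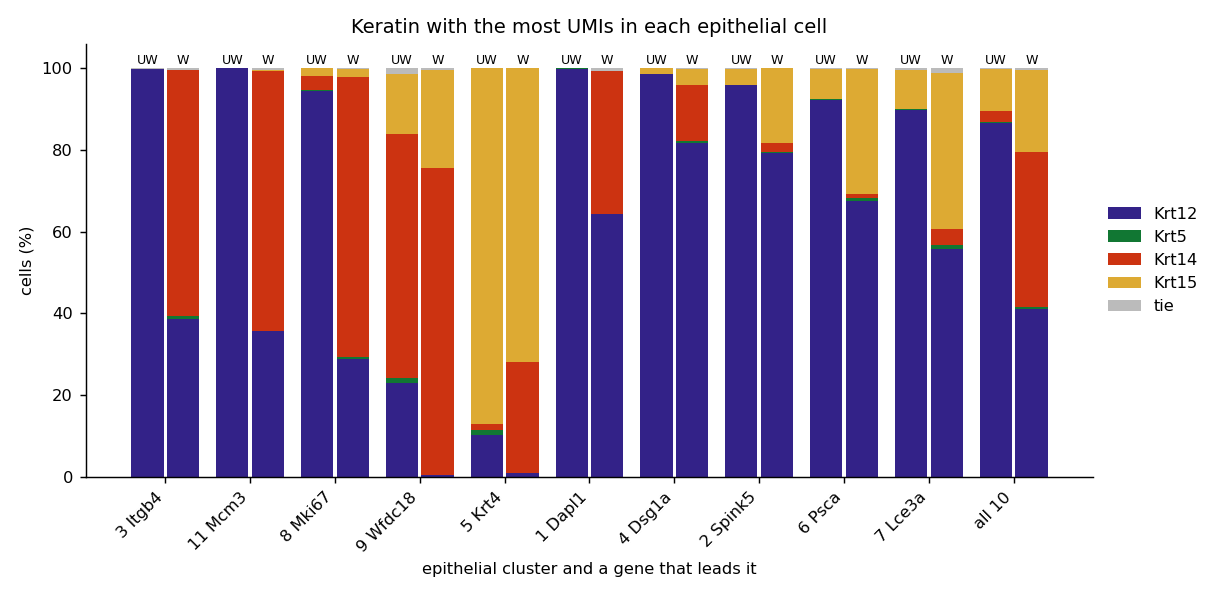
Share of cells (percent) in which each of the 4 genes has the most UMIs, by epithelial cluster and over all 10, with UW on the left and W on the right of each pair of bars and ties in grey. *Krt12* leads 86.7% of all UW and 41.2% of all W epithelial cells, and *Krt15* leads 87.0% and 71.9% of the cells of cluster 5.

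The ratio of the type I members to *Krt5* varied more between clusters than between libraries, while the make-up of the type I sum differed between libraries. The UMIs of *Krt12*, *Krt14* and *Krt15* together were 3.83 to 7.14 times those of *Krt5* over the UW clusters and 3.95 to 8.40 times over the W clusters. In the *Itgb4* cluster 3 the type I members summed to 30728 CPM in UW and 26797 in W, with ratios to *Krt5* of 4.44 and 4.72. *Krt12* made up 94.7% of those type I UMIs in UW and 44.4% in W, and *Krt14* 4.09% and 52.3%. In cluster 9 *Krt12* made up 33.9% and 7.17%, *Krt14* 41.3% and 61.6% and *Krt15* 24.9% and 31.2%. Over all measured type I keratins, the 3 members held 58.4% to 96.0% of UMIs in UW clusters and 48.8% to 87.2% in W, and *Krt5* held 6.97% to 91.9% and 10.9% to 78.8% of the type II UMIs. The ratio of all type I to all type II keratin UMIs was 4.17 in UW and 2.997 in W in cluster 3, and 0.853 and 1.88 in cluster 7.

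To compare the libraries without the clusters, epithelial cells of both libraries were put in 5 ranges of equal size by the share of their UMIs in 9 genes of basal adhesion, none of them a keratin and among them *Itgb4*, *Itga6*, *Itga3*, *Itgb1*, *Col17a1*, *Lamb3*, *Lama3* and *Cd151*. The list itself differed between libraries (median log2 ratio of *Lamb3* 2.18 and of *Itgb4* 1.44), the ranges are not cell types, and 22.4% of cells lay within 10% of a border. Along these ranges *Krt14* in UW was 48.9, 67.7, 164, 1117 and 2332 CPM from the lowest to the highest range, and in W 5178, 9634, 12416, 12738 and 12947 CPM. The log2 ratios were 6.73 in the lowest and 2.47 in the highest range. The W level was higher in every range, and the log2 ratio was smallest in cells with the most basal UMIs. In the lowest and second ranges the UW levels lay near the 57.4 CPM of cluster 0, so their ratios depend on the background. *Krt12* was lower in W in all 5 ranges, from 16989 against 12502 CPM in the lowest through 29694 against 14824 in the second and 35091 against 15959 in the third, 29817 against 9368 in the fourth and 22054 against 11153 in the highest. *Krt5* had log2 ratios of -0.32 to 0.20, and *Krt15* had log2 ratios of 0.79 to 1.13, with levels of 7319 (UW) and 15183 (W) CPM in the second range and 712 and 1480 in the highest. The summed level of the 10 genes of a superficial list, which also holds the suprabasal markers *Dsg1a* and *Cdkn1a*, was lower in W within each range. It was 44156 against 20880 CPM in the lowest, so cells of a range were not alike in the libraries.

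**Figure D5:**
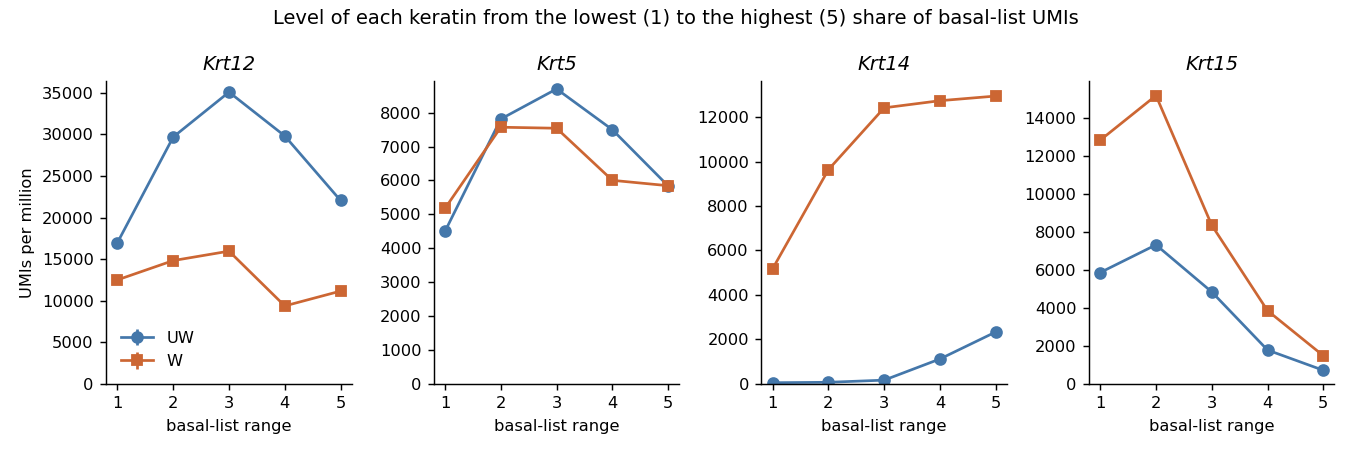
UMIs per 1000000 UMIs of each gene in 5 ranges of epithelial cells, from the lowest (1) to the highest (5) share of UMIs in the basal list, for UW (circles) and W (squares), with 95% counting intervals smaller than the symbols. *Krt14* of UW stays at or below 164 in ranges 1 to 3 and reaches 2332 in range 5, while W goes from 5178 to 12947, and the W line of *Krt12* lies below that of UW in all 5 ranges.

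*Gpha2*, known as a limbal epithelial marker, was not limited to the epithelium in these libraries: 49.9% of UW cells of the keratocyte-like cluster 0 had at least 3 of its UMIs, and so had 91.6% of UW cells of the *Wfdc18* cluster 9, 23.4% of cluster 5, 15.9% of cluster 8 and 0.691% of cluster 1. After thinning to 5000 UMIs the shares of clusters 9 and 0 were 78.6% and 34.7%, and in W, without thinning, they were 97.3% and 85.75%. The following UW values are given as a description, first for clusters 8 and 5, which had the largest ratios for *Krt15* and for *Krt14*. In the *Mki67* cluster 8, 85 cells with at least 3 *Gpha2* UMIs held 2280 CPM of *Krt15* and 3451 of *Krt14*, and 272 cells with none held 254 and 1859, while *Krt12* was 12562 and 18974 CPM. The cells with *Gpha2* were the deeper ones, with a median of 25783 against 22943 UMIs. In cluster 5, *Krt14* was 1528 CPM in 257 cells with *Gpha2* and 178 in 432 cells without, while *Krt15* was 21223 and 23448 CPM and *Krt12* 3886 and 6320 CPM. There the cells with *Gpha2* were the shallower ones, with a median of 20731 against 24432.5 UMIs. The contrasts were smaller in clusters 3, 6 and 11. Cells with *Gpha2* held 1.43, 1.23 and 1.45 times the *Krt14* and 2.51, 1.425 and 2.22 times the *Krt15* of cells without. The same ratios for *Krt12* were 0.826, 1.025 and 0.896. In W the cells with at least 3 UMIs were the deeper ones in each of the 9 epithelial clusters compared (cluster 9 was not), for example with a median of 39198 against 25191 UMIs in cluster 8, and the members are not compared there.

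Other keratins and linked genes are described by counts beside the median of all genes, which was -0.14 to 0.26 over the clusters, and beside the share of all genes called, which was 9.12% to 23.2% higher and 6.48% to 13.5% lower. Genes named from a list are those with the largest or smallest medians among its members that reached 100 CPM, and rarer members enter the counts alone. Of 10 other type I keratins, 7 or 8 had UMIs in both libraries and at least 20 in all per cluster, of which 3 to 7 were higher and 0 lower by 2-fold in W, with median log2 ratios of 0.36 to 3.71. *Krt18*, of simple epithelia (median log2 ratio 3.81), *Krt17* (2.73), *Krt19* (2.40) and *Krt16* (2.29) came first, and *Krt16* and *Krt17* are known as keratins of stressed and hyperproliferative epithelium. *Krt13* of mucosal epithelia (1.28) and *Krt23* (0.41) came last. *Krt16* and *Krt17* are close in sequence to *Krt14*, and how reads shared by them were counted is uncertain. The 13 other type II keratins, 9 to 12 of them measured, were mixed, with 1 to 5 higher and 1 to 3 lower and medians of -0.49 to 1.11. *Krt4* (1.63), *Krt6a* (1.099) and *Krt7* (0.94) had the largest median log2 ratios at that level and *Krt78* (-1.81), *Krt75* (-1.80) and *Krt80* (-0.71) the smallest.

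Genes listed as linked to keratin filaments were mostly within 2-fold, with 0 to 4 of 13 or 14 measured genes higher and 0 to 3 lower and medians of -0.42 to 0.22. These counts include *Krtcap3*, which was higher by 2-fold in 7 of 10 clusters and did not reach 100 CPM. Among genes of 100 CPM or more, *Itgb4*, the hemidesmosome integrin (median log2 ratio 1.44), *Pkp3*, a plakophilin of desmosomes (1.01), and *Col17a1*, a hemidesmosome collagen (0.58), were highest, and desmoplakin *Dsp* (-1.20), periplakin *Ppl* (-0.84) and *Dst* (-0.68) lowest. Of 17 to 19 measured transcription factors linked to epithelial keratin genes, 0 to 4 were higher and 0 to 2 lower, with medians of -0.41 to 0.29. Over all genes of a cluster, 9.12% to 23.2% were higher and 6.48% to 13.5% lower. *Klf4* (0.37), *Sox9* (0.34) and *Klf5* (0.06) had the largest medians among factors at 100 CPM or more and *Grhl1* (-0.65), *Junb* (-0.53) and *Trp63*, which encodes the p63 of basal cells (-0.31), the smallest.

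All 9 genes of the basal list were measured, with 0 to 5 higher and 0 to 1 lower and medians of -0.49 to 1.16. Among those that reached 100 CPM, *Lamb3* (2.18) and *Itgb4* (1.44) had the largest medians and *Itgb1* (-0.39), *Itga6* (0.02) and *Itga3* (0.38) the smallest. The 10 genes of the superficial list had 0 to 1 higher and 4 to 8 lower, with medians of -1.47 to -0.61. The list includes *Dsg1a* and *Cdkn1a*, which the study used as markers of suprabasal cells. Among genes of 100 CPM or more, *Dsg1a* (-2.73), *Ly6g6c* (-2.71) and *Lypd2* (-1.79) had the smallest medians. *Spink5* (1.79), *Muc4* (-0.39) and *Cldn4* (-0.75) were at the other end among those genes.

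The genes most alike in pattern were ranked by Pearson's r of log2(CPM + 1) over 20 points, the 10 clusters in both libraries. The 2551 genes compared reached 100 CPM somewhere among these points. These points share 2 libraries and are not independent. For *Krt5* they were *Sfn* (0.97), the E-cadherin gene *Cdh1* (0.96), *Perp* (0.96), the desmoglein gene *Dsg3* (0.96) and *Aqp3* (0.96). For *Krt14* they included *Ifitm2* (0.98), *Plaur*, the urokinase receptor (0.93), *Ifitm3* (0.93) and *Pmepa1* (0.93). *Krt12* was most like *Fam25c* (0.93), *Slco3a1* (0.91), *Agfg2* (0.88), *Klf3* (0.85) and *Guca1a* (0.84), and *Krt15* most like *Cmah* (0.94), *Adam28* (0.93), *Krt4* (0.92), *Oit1* (0.90) and *Cdc42ep3* (0.89). The members were less alike with each other: r was 0.49 for *Krt12* and *Krt5*, and for *Krt5* and *Krt14* it was 0.10 over the 10 clusters of UW and 0.81 over those of W.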

How the data were processed

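Both tables used were made by the authors. The deposited UMI counts per gene and cell were not normalized, and the deposited table of cells gives library, cluster and doublet calls. Per the labels, reads were processed with Cell Ranger 3.1.0 and Seurat. The study's methods name the mm10 reference and the V2 kit, whereas the labels name mm9 and the v3 kit. The authors had filtered cells on genes and mitochondrial share, removed doublets and integrated the libraries by canonical correlation before clustering. The deposited table holds fewer cells than the study's text gives, for reasons not stated in the sources used here. Its cells had 501 to 7570 genes, and the 2 libraries held 367166822 (UW) and 289586482 (W) UMIs. How reads that match several keratin genes were assigned is not given in the sources used here.

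Counts were summed per cluster and library and given as CPM with exact Poisson 95% intervals. Log2 ratios have exact binomial intervals, shares exact Clopper-Pearson intervals, and a sum of 0 still has an upper limit above 0. These cover counting error only. Ratios were described in clusters with at least 50 cells in each library, and genes set beside the members had at least 20 UMIs. The calculation of the ratio was checked on simulated counts, which is a check of the method and not a test of these libraries. The named genes are the members, the 5 genes most like each, and of each list the 3 largest and 3 smallest median log2 ratios among genes reaching 100 CPM. Some genes that this rule names are not reported here. *Gpha2* was fixed as a limbal marker. The members and lists were chosen with earlier results of these data known. Alternatives were a filter of 1000 genes and 5% mitochondrial UMIs, TMM factors (edgeR 4.0.16, R 4.3.3), median-of-ratios factors, other denominators and weights, thinning to 5000 UMIs per cell and removal of 469 cells called doublets in a first deposited run. The free RNA correction and the threshold set by cluster 0 were added after the data had been seen. Python 3.11.15, numpy 2.4.6, scipy 1.17.1 and pandas 2.3.3 were used.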

Additional observations from a re-analysis of the deposited data

Results flagged for a closer look

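*Krt12*, *Krt5* and *Krt15* had counting intervals of their W to UW log2 ratio on opposite sides of 0 in different epithelial clusters. *Krt12* was at 0.45 in the *Lce3a* cluster 7 and at -1.89 in the *Wfdc18* cluster 9. *Krt5* was at 0.83 in cluster 7 and at -0.29 in the *Itgb4* cluster 3. *Krt15* was at 2.36 in cluster 7 and at -0.13 in the *Krt4* cluster 5. The differences between clusters were not tested, since each condition has 1 library. Cluster 7 supplied the higher value in each case, its median log2 ratio over all genes was 0.26, and TMM factors shifted each of its ratios by -0.38.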

How the results depend on the processing

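Of the 40 member and cluster pairs, 39 kept their sign and 38 their side of 2-fold under all 8 alternatives. The pairs that crossed 2-fold were *Krt14* in cluster 9 and *Krt15* in cluster 1, and the pair that changed sign was *Krt15* in cluster 4. The number of pairs lower by 2-fold was 5 in every alternative, and that of pairs higher was 15 or 14. The median log2 ratios over clusters, reported as -1.003 for *Krt12*, 0.05 for *Krt5*, 4.40 for *Krt14* and 1.11 for *Krt15*, moved by more than the counting error as follows. With TMM factors they were -1.01, 0.082, 4.21 and 1.04, and with median-of-ratios factors -1.02, 0.080, 4.20 and 1.04. With each cell weighted alike they were -1.01, 0.035, 4.16 and 1.04. The stricter cell filter gave -0.98 for *Krt12*, 4.48 for *Krt14* and 1.14 for *Krt15*, thinning gave 4.24 for *Krt14* and 1.05 for *Krt15*, leaving out doublets of the first run gave -0.98 for *Krt12* and 1.13 for *Krt15*, and taking off the UMIs of cluster 0 gave 1.07 for *Krt15*. When cells were thinned before scoring the basal list, 40.6% of cells lay near a border and the log2 ratios ran from -1.44 to -0.44 for *Krt12*, -0.27 to 0.16 for *Krt5*, 2.48 to 6.79 for *Krt14* and 0.79 to 1.32 for *Krt15*. Over all epithelial cells, the shares led by each member stayed within their intervals after thinning. The share of all genes higher by 2-fold was 9.12% to 23.2% over clusters with at least 20 UMIs, 6.45% to 13.2% with at least 200 and 19.4% to 31.0% with at least 1. Of the 5 genes most like each member over both libraries, UW alone gave 3 for *Krt12*, 2 for *Krt5*, 1 for *Krt14* and 3 for *Krt15*, and W alone 2, 0, 0 and 2. No paired analysis was possible because each condition has 1 library. Depth was high enough that counting error was small against every difference called, but library, pooling and wounding cannot be told apart.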
